A study of Homo sapiens with 4 samples.

Results

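C2 is a brain-metastatic line that was taken through further brain passages under vehicle, and PC9-BrM4 is the line it came from. The expression profiles of both were compared here through 4 of the 19 cell sub-populations into which the cells of all lines had been clustered. Sub-populations 0 and 4, most prevalent in C2 according to the text of the study, held 5976 cells. Sub-populations 6 and 7, placed in PC9-BrM4 by its plot, held 3121 cells. Together they made up 9097 of 24441 cells, or 37.2%.

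All lines descend from PC9, a human lung adenocarcinoma line with a deletion in EGFR that keeps this receptor kinase active. PC9 cells first received a lentiviral reporter (thymidine kinase, GFP and luciferase). PC9-BrM4, labelled BM4, was then obtained by repeated injection into the arterial circulation of athymic male mice and recovery from the brain. For C2, PC9-BrM4 cells went through additional rounds of the same selection in mice that were given vehicle, and R2 was selected in parallel in mice given the EGFR inhibitor osimertinib. C2 and R2 were afterwards infected with a second virus, pLV-eGFP, for which no such step is described in PC9-BrM4. C2 and PC9-BrM4 therefore differ in brain passages, in this infection and in time in culture, which cannot be told apart here. Each line was sequenced as 1 library of cells pooled from several culture passages, after growth in culture without drug. The profiles are thus those of cultured cells and not of cells in the brain, and p-values were not computed, because no line had a second library.

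A value given below is the mean over the cells of 1 sub-population, not over a line. A sub-population can also hold cells of the other lines, and the cells were clustered on the same transcripts that are compared here, so that the differences describe the sub-populations and no gene was tested. It is expressed as corrected UMIs (counts of captured transcripts, adjusted by the authors to a common depth) relative to a total of 1000000, abbreviated CPM. The effect is the mean of log2(CPM + 5) over sub-populations 0 and 4 minus that over 6 and 7, so that a positive effect is a higher level in C2. Genes with a mean of 10 CPM or more over the 4 sub-populations counted as measured. They were called when the effect reached 1 in either direction with no overlap between the C2 and PC9-BrM4 values. The 4 sub-populations had between 14022 and 15006 corrected UMIs per cell and a relative raw depth between 0.989 and 1.01, so that their depths were nearly equal. Intervals of levels are 95% Poisson intervals of the summed UMIs, and those of effects are 95% intervals by a normal approximation from the same counts. They cover counting error only, and their half-width had a median of 5.79% of the level and of 0.08 for an effect among the called genes.

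Cells that seed the brain from the circulation have to leave vessels, survive in foreign tissue and grow along capillaries. Proteins of the extracellular matrix, proteases and their inhibitors, the actin skeleton and the transcription coactivator YAP are known to take part in these steps. Secreted factors and interferon-induced proteins are also often described in brain metastases.

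Of 7257 measured genes, 126 were called higher in C2 (1.74%) and 60 lower (0.827%). The median effect over all measured genes was -0.05. Differences were mostly moderate, with a median effect of 1.29 for the higher and -1.12 for the lower genes. Among the higher genes, 42 were below 10 CPM on average in PC9-BrM4 and passed the filter through their C2 level. For the lower genes, 15 were below 10 CPM in C2. The direction was the same in a second table built from uncorrected counts for 125 of the 126 and for 59 of the 60 genes. B2M turned its sign there, and MT-ND1 had no usable value. At the threshold, POLE4, DKK1 and MOK lay just inside on the higher side with effects of 1.0 to 1.01, and CTSH, LRIF1 and NSA2 just outside with 0.98 to 0.99. On the lower side, RPS18, FOXA1 and ELP2 were just inside at -1.0, and FAM189B, FAM229B and INTS13 just outside with effects of -0.99 to -0.996.

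BST2, which encodes tetherin, a membrane protein that holds budding viruses at the cell surface and is induced by interferon, had the largest effect. It was at 4.49 CPM in sub-population 7 and 3.65 in 6, against 137 in 0 and 125 in 4. Both C2 values were far above both PC9-BrM4 values, a ratio of means of 32.2 and an effect of 3.91 (95% counting interval 3.81 to 4.01). S100A4, a calcium-binding protein linked to cell motility and metastasis, was second. Its levels were 14.9 and 18.6 CPM in sub-populations 7 and 6 and 173 and 177 in 0 and 4, an effect of 3.05 (2.97 to 3.14).

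**Figure D1:**
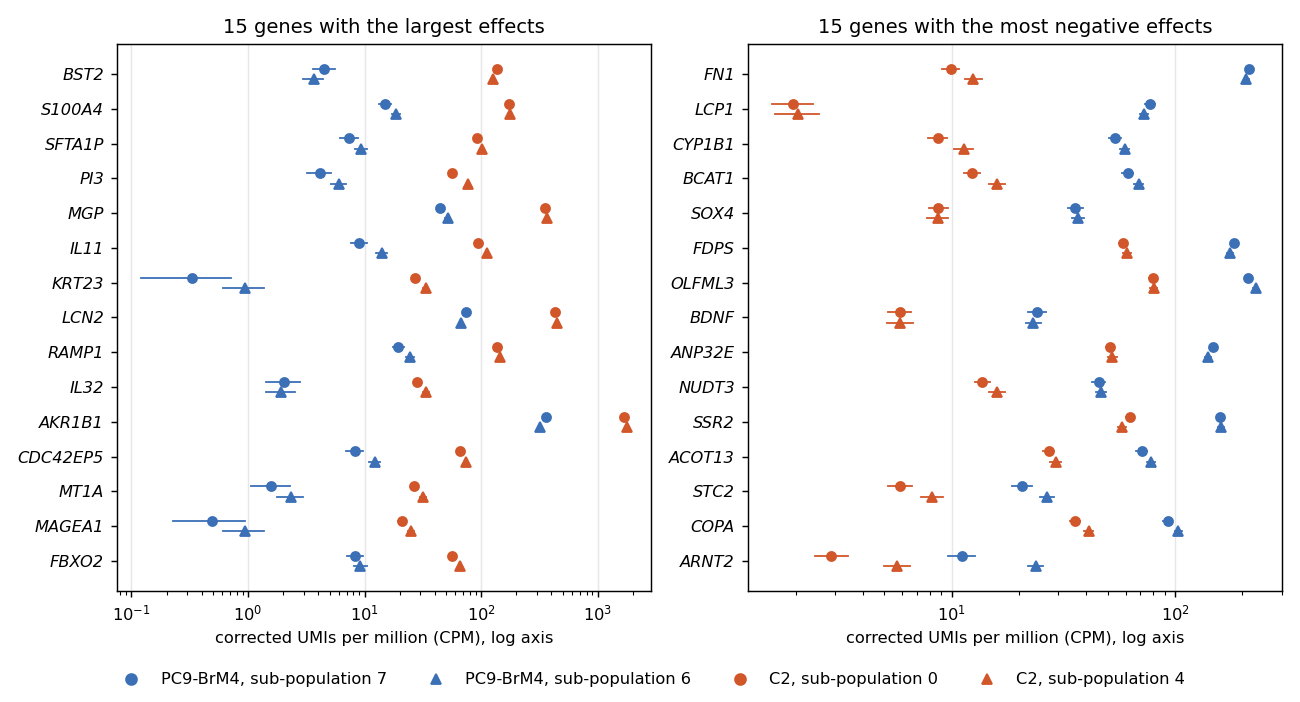
CPM (corrected UMIs, log axis) of the 15 genes with the largest and the 15 with the most negative effects in sub-populations 7 and 6 (PC9-BrM4, blue) and 0 and 4 (C2, orange); lines are 95% Poisson intervals. For each gene the C2 and PC9-BrM4 points are apart, and the sub-populations placed in the same line are close together.

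MGP, the matrix Gla protein, a secreted inhibitor of calcification that binds bone morphogenetic proteins, was at 44.6 and 51.6 CPM in sub-populations 7 and 6. It reached 353 and 368 in 0 and 4, an effect of 2.79. SFTA1P, a long non-coding RNA of lung epithelium, was at 7.39 and 9.32 against 91.2 and 101. Secreted proteins with antimicrobial or protease-inhibiting activity stood among the leading genes. PI3, which encodes elafin, an inhibitor of neutrophil elastase, went from 4.11 and 6.0 CPM to 56.3 and 76.8, an effect of 2.82. LCN2, a secreted protein that binds iron-loaded siderophores, was at 73.8 and 67.2 CPM against 432 and 443, an effect of 2.55.

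IL11, a cytokine of the interleukin 6 family, was at 8.92 and 13.9 CPM in PC9-BrM4 and at 94.0 and 112 in C2, an effect of 2.73. IL32, a proinflammatory cytokine, was at 2.03 and 1.92 against 28.2 and 33.7. AKR1B1, aldose reductase, was the most abundant of the 15 leading genes, with 360 and 319 CPM against 1675 and 1771 and an effect of 2.33. The rest of the 15 comprised the epithelial keratin KRT23 (effect 2.64), RAMP1, a subunit of the calcitonin gene-related peptide receptor (2.44), CDC42EP5, an effector of the GTPase CDC42 (2.31), the metallothionein MT1A (2.29), the cancer-testis antigen MAGEA1 (2.28) and the ubiquitin ligase subunit FBXO2 (2.26). KRT23 and MAGEA1 were below 1 CPM in both PC9-BrM4 sub-populations.

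On the lower side 2 genes stood apart from the rest. FN1, fibronectin, a main adhesive protein of the extracellular matrix, was at 215 and 208 CPM in sub-populations 7 and 6 and at 9.90 and 12.5 in 0 and 4. The effect was -3.74 (-3.81 to -3.67), and the PC9-BrM4 mean was 18.9 times the C2 mean. LCP1, L-plastin, an actin-bundling protein best known from leukocytes, was at 77.1 and 72.8 CPM against 1.95 and 2.05, an effect of -3.51 (-3.59 to -3.44).

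CYP1B1, a cytochrome P450 that oxidises hormones and aromatic compounds, followed with 53.8 and 59.5 CPM against 8.65 and 11.3, an effect of -2.04. In the table of uncorrected counts its effect was -0.22. BCAT1, the cytosolic enzyme that starts the breakdown of branched-chain amino acids, had an effect of -1.87, and the transcription factor SOX4 one of -1.60. FDPS, which makes farnesyl diphosphate for cholesterol and protein prenylation, was at 184 and 176 CPM against 58.4 and 61.1, an effect of -1.52. The remaining named genes were OLFML3, a secreted olfactomedin-like protein (-1.41), the neurotrophin BDNF (-1.40), the histone chaperone ANP32E (-1.40), the diphosphoinositol phosphatase NUDT3 (-1.37), SSR2, a subunit of the translocon-associated complex (-1.34), the thioesterase ACOT13 (-1.26), the secreted glycoprotein STC2 (-1.26), the coatomer subunit COPA (-1.25) and the transcription factor ARNT2 (-1.23).

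The difference between the lines was then read separately at each cell cycle state. A list of G2/M genes summed to 4219 CPM in sub-population 7 and 3617 in 0, against 6543 in 6 and 6746 in 4. TOP2A, the topoisomerase of dividing cells, was at 75.7 and 50.7 CPM in 7 and 0 and at 309 and 348 in 6 and 4. CCNB1, a cyclin that drives entry into mitosis, ran the other way, with 199 and 184 CPM in 7 and 0 and 144 and 175 in 6 and 4. Sub-populations 0 and 7 are called the low pair and 4 and 6 the high pair, by the sum of the list and not by every mitotic gene. In the low pair, 0 against 7, 122 genes differed by 2-fold upwards (1.68% of those measured) and 59 downwards (0.813%). In the high pair, 4 against 6, the numbers were 129 (1.78%) and 57 (0.785%). Of the 126 genes called higher, 113 passed 2-fold in both pairs, and of the 60 called lower, 42 did. The effect used for the call is the mean of the effects in both pairs. These counts therefore follow in part from the call and are descriptions. The effects of the called genes differed between the pairs by a median of 0.11 for higher and 0.10 for lower genes. BST2 had effects of 3.90 and 3.91, FN1 of -3.89 and -3.60 and LCP1 of -3.56 and -3.46.

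**Figure D2:**
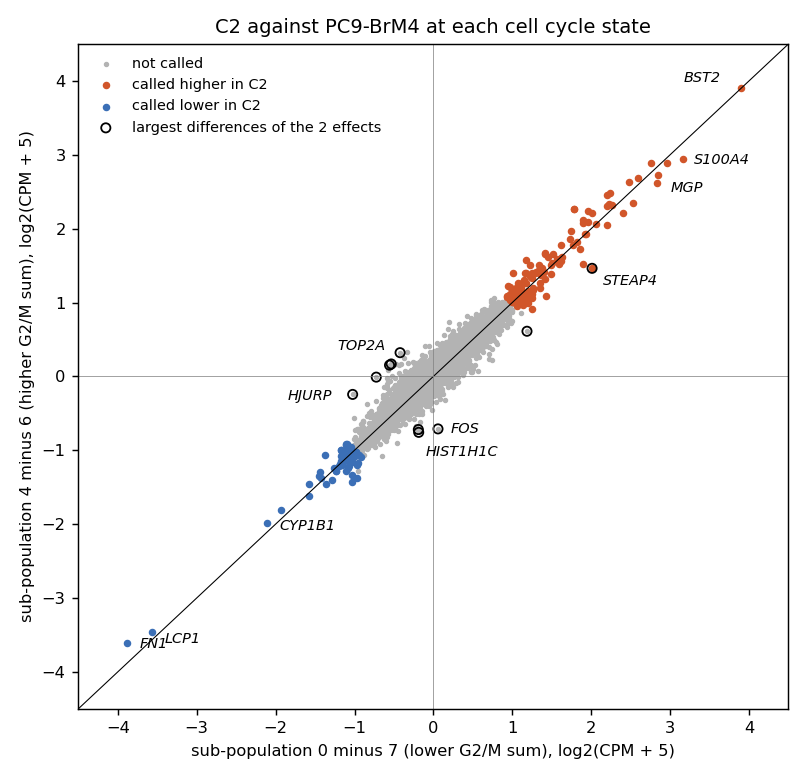
Difference in log2(CPM + 5) between C2 and PC9-BrM4 for 7257 measured genes, in the sub-populations with the lower sum of G2/M genes (0 minus 7, x axis) and with the higher sum (4 minus 6, y axis); the line marks equal effects, and circles mark the 10 genes with the largest differences between the axes. BST2 lies at the top right and FN1 at the bottom left, close to the line, and the circled genes lie off it.

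No measured gene had effects in the pairs that differed by 1 or more, and 24 differed by 0.5 or more. Among the 10 genes with the largest such differences, HJURP, AURKB, KIF2C and TOP2A belonged to the G2/M list. HJURP, the chaperone that loads the centromeric histone CENP-A, had an effect of -1.02 in the low pair and -0.24 in the high pair. AURKB, a mitotic kinase, had -0.42 and 0.32. FBXO5, an inhibitor of the anaphase-promoting complex, had -0.72 and -0.01, the mitotic kinesin KIF2C -0.56 and 0.15, and TOP2A -0.53 and 0.17. In the opposite direction, the immediate early gene FOS had 0.06 and -0.71, the linker histone HIST1H1C -0.19 and -0.76 and the core histone HIST1H2AH -0.19 and -0.72. HSD3B1, a steroid dehydrogenase, had 1.19 and 0.61, and STEAP4, a metalloreductase, 2.01 and 1.46. The only measured gene past an effect of 1 whose C2 and PC9-BrM4 values overlapped was HIST1H1B, with an effect of -1.12.

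Genes were next grouped by function. A list is described by its called members and its median effect, beside -0.05 and the shares of 1.74% higher and 0.827% lower for all measured genes. Over all measured genes 3170 (43.7%) were above 0, against which the counts of members above or below 0 are to be read. Members below 10 CPM on average in either line were measured only through the other, so that their direction followed from the filter. Of 14 measured interferon-stimulated genes, BST2 and IFI27L2 were higher and none was lower, and the median was 0.10. Both called genes were below 10 CPM in PC9-BrM4 and counted as measured through their C2 level. IFI27L2, a small mitochondrial protein, was at 1.97 and 3.04 CPM against 18.2 and 24.1. ISG15, a ubiquitin-like modifier, had an effect of 0.46 (3.24 in the table of uncorrected counts) and the antiviral membrane protein IFITM3 0.51.

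Of 14 measured genes of antigen presentation on MHC class I, 2 were called higher. HLA-B, a class I heavy chain, was at 22.3 and 23.7 CPM in sub-populations 7 and 6 and at 88.4 and 93.7 in 0 and 4, an effect of 1.78. B2M, the light chain that all class I molecules share, was at 322 and 279 against 682 and 642, an effect of 1.13. In the table of uncorrected counts the effect of B2M was -0.10. The heavy chains HLA-C (-0.18) and HLA-E (-0.57) were not called, and the peptide transporter genes TAP1 (-0.34) and TAP2 (-0.65) were not called either. The median of the list was -0.20, and turned to 0.16 when the median effect of neighbouring genes was subtracted, a step described further on.

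The stretches just before the starts of BST2 and B2M are shown because both genes were called higher and both stretches hold an overlapping pair of matches to GAAANNGAA, a letter pattern of interferon response elements. The letters were searched on both strands, and matches are in capitals. In BST2 the capitals also mark 2 matches to TTCNNNGAA, the pattern bound by STAT factors, of which the first overlaps the pair. The sequences are from RefSeq promoters on GRCh38.p14, 5′ to 3′ on the gene's strand, and end at the base before the start. They lie at chr19:17405631-17405780 (minus strand) and chr15:44711367-44711516 (plus strand).
BST2: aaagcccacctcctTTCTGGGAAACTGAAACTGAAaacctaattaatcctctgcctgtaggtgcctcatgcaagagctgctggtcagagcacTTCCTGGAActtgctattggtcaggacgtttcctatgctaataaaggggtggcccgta
B2M: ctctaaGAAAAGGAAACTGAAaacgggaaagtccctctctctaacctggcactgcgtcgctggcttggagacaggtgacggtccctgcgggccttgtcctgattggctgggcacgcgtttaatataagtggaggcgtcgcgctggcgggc
Over all 27305 promoters in the table, 7.06% held at least 1 match to GAAANNGAA within 250 bases before the start and 0.593% held 2 or more. For TTCNNNGAA these shares were 6.78% and 0.396%. Promoters were found for 89 genes called higher, of which 6 (6.74%) held a GAAANNGAA match, against 5.22% of 5862 measured genes. Among 51 promoters of genes called lower, 3 (5.88%) held one. HLA-B and IFI27L2 had 0 matches to GAAANNGAA in this window.

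Cytokines and targets of the transcription factor NF-kB had 3 of 13 measured members called higher, namely IL11, IL32 and IL18, and none lower, with a median of 0.41. Of these, IL32 was below 10 CPM in PC9-BrM4 and counted as measured through its C2 level. IL18, a cytokine released by inflammasomes, was at 31.9 and 33.7 CPM against 65.4 and 77.6. NFKBIA, the inhibitor induced by NF-kB itself, had an effect of 0.32 and the receptor gene TNFRSF21 one of -0.30. Of 5 measured EGFR family genes and ligands, AREG was called. It encodes amphiregulin, a ligand of EGFR, and was at 22.5 and 42.7 CPM against 97.5 and 132, an effect of 1.71. EGFR itself was at 310 and 299 CPM against 471 and 513, an effect of 0.68, and the ligand gene TGFA had 0.42. EGFR lies at 40 to 60 Mb of chromosome 7, where the median effect over 41 measured genes was 0.46. The median of the EGFR list was 0.42, and 0.27 after the median effect of neighbouring genes was subtracted. Among other receptor kinases, AXL, a receptor for GAS6, was called higher with 6.08 and 6.22 CPM against 20 and 28.6. IGF1R, the receptor of insulin-like growth factors, was called lower with 13.6 and 18.4 against 3.45 and 5.89, and MET had an effect of 0.91.

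Targets of YAP and its DNA-binding partners, the TEAD factors, were above 0 in 15 of 17 measured members, with a median of 0.47, and ANKRD1 and AXL were called higher. Both called genes were below 10 CPM in PC9-BrM4 and counted as measured through their C2 level. ANKRD1, a nuclear ankyrin repeat protein, was at 3.01 and 8.20 CPM in sub-populations 7 and 6 against 24.8 and 52.2 in 0 and 4, an effect of 2.0. CYR61, a matricellular protein, had 0.71, and FJX1 was the lowest with -0.19. The 200 bases before ANKRD1 are shown because this gene led the list. The capitals mark a match to TGANTCA, the pattern of AP-1 factors, and 1 of the 2 matches to GGAATG, the core of TEAD sites, that lie within 250 bases (chr10:90921088-90921287, minus strand, GRCh38.p14, RefSeq).
ANKRD1: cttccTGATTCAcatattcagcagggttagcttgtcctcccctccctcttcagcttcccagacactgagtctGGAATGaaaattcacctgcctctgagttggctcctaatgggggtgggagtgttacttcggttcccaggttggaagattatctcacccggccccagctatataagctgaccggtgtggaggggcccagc
Among all promoters, 6.60% held TGANTCA and 11.9% held GGAATG within 250 bases. Of the 89 promoters of genes called higher, 6 held the first and 7 (7.87%) the second, against 3.34% and 9.01% of the promoters of measured genes. Of the 51 promoters of genes called lower, 0 held the first and 8 (15.7%) the second. IL11 and LCN2 each had 1 match to TGANTCA. AP-1 factors were not called themselves, and their 2 largest effects by size were 0.73 for JUND and 0.58 for FOSL1.

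**Figure D3:**
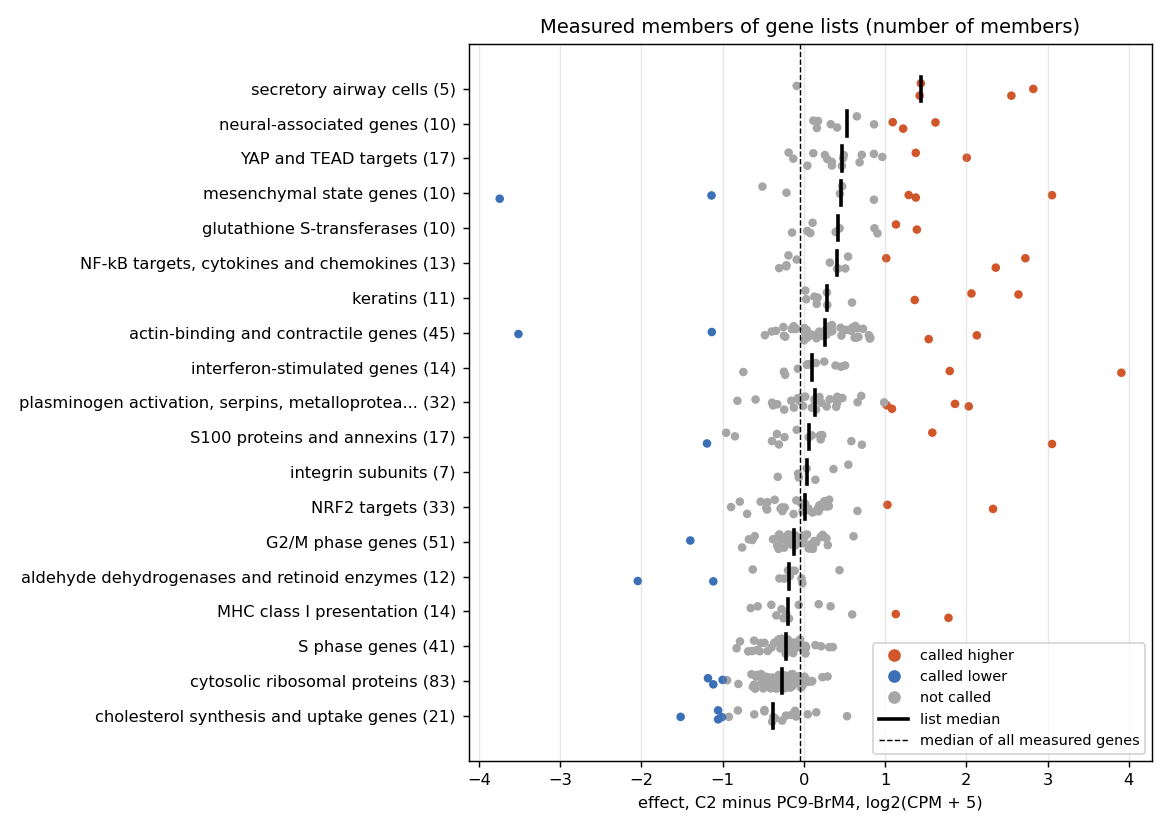
Effects (C2 minus PC9-BrM4, log2(CPM + 5), x axis) of the measured members of 19 gene lists, with their number in parentheses; orange and blue points are called higher and lower, thick bars are list medians and the dashed line is the median of all measured genes. The highest list median is that of secretory airway markers and the lowest that of cholesterol genes.

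The extracellular matrix list was not uniform. Of its 22 measured members MGP was called higher and FN1 lower, 14 were above 0, and the median was 0.18. The laminin gene LAMB3 (0.56) lay on the higher side. The type IV collagens COL4A1 (-0.47) and COL4A2 (-0.36) and TGFBI (-0.72), a matrix adaptor protein, lay on the lower side. Of 7 integrin subunits no member was called, and the 2 largest effects were 0.55 for ITGA3 and 0.36 for ITGA2.

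Proteases and their inhibitors had 4 of 32 measured members called higher and none lower, with a median of 0.14. PLAU, the urokinase that activates plasminogen, was at 13.1 and 11.3 against 30.1 and 32.9, an effect of 1.08. The cysteine protease inhibitor CSTA had 1.86 and the metalloprotease inhibitor TIMP2 1.02.

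Among 10 measured genes of the mesenchymal state, S100A4, AXL and LGALS1 were higher, and FN1 and LOXL2 were lower. LGALS1, galectin 1, was at 934 and 747 CPM against 2189 and 1920, and LOXL2, a lysyl oxidase that cross-links collagen, at 14.8 and 18.7 against 4.44 and 5.26. The epithelial cadherin CDH1 had an effect of 0.95. VIM, the intermediate filament protein of mesenchymal cells, stayed between 5.24 and 7.81 CPM in the 4 sub-populations and was below the filter. Its effect was -0.24, but 2.39 in the table of uncorrected counts. Of 19 listed keratins 11 were measured, all of them above 0, with a median of 0.28. At least KRT23 and KRT17 were below 10 CPM in PC9-BrM4 and counted as measured only through their C2 level. The effect of KRT6B was 1.36 and ranged from 0.66 to 2.03 over the alternatives. KRT23, KRT17 and KRT6B were called higher, and KRT17, a keratin of basal and stressed epithelium, was at 1.31 and 1.81 CPM against 21.2 and 23.6. The abundant simple-epithelial keratins KRT8 (0.28) and KRT18 (0.17) differed little.

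Of 45 measured actin-binding and contractile genes, 33 were above 0. The median was 0.26, and -0.07 in the table of uncorrected counts. PDLIM4, a LIM protein of stress fibres, was at 5.20 and 7.08 CPM against 42.0 and 45.1, an effect of 2.13. MSN, moesin, which ties actin to the membrane, had 1.54 (0.45 with uncorrected counts), LCP1 had -3.51, and TAGLN2, an actin-binding protein of the transgelin family, had -1.13. ARHGAP29, a GTPase-activating protein, was called higher at 130 and 111 CPM against 296 and 300. The genes RHOA (0.06), RHOC (0.41) and RAP1A (0.21), which the study names, were not called.

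S100 proteins and annexins had S100A4 and S100A9 called higher and S100A14 lower among 17 measured members. Their median of 0.06 was -0.07 in the table of uncorrected counts. S100A9, a subunit of calprotectin, was at 321 and 359 CPM against 963 and 1092, an effect of 1.58 (0.31 with uncorrected counts), while S100A10 had -0.96. Of the genes reported in brain metastasis, 8 were measured and S100A4 was called. Of 38 listed neural-associated genes 10 were measured, all of them above 0, with a median of 0.53. Genes of neurons or glia outside this list went both ways. BDNF was called lower (-1.40), the myelin gene MBP had -0.63, and the glutamate transporter SLC1A3 was called higher (1.09). MAP1B, a microtubule-associated protein of neurons, was at 116 and 111 CPM against 368 and 350. The growth factor midkine, MDK, had 1.22 and PRNP, the prion protein gene, 1.09.

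Among enzymes of detoxification, AKR1B1 and AKR1C1 were called of 33 measured NRF2 targets, with a median of 0.02 whose sign changed in 4 alternatives. AKR1C1, a hydroxysteroid dehydrogenase, was at 128 and 129 CPM against 263 and 272, while its close relative AKR1C2 had an effect of -0.90. Whether reads of these near-identical genes were split unequally was not tested, and both values are uncertain. Of 10 glutathione S-transferases 9 were above 0, and GSTM3 (1.39) and GSTM4 (1.13) were called higher. Aldehyde dehydrogenases and retinoid enzymes lay on the other side, with 11 of 12 measured members below 0 and a median of -0.18. CYP1B1 and ALDH3A1 were called lower, and ALDH3A1, an enzyme that oxidises aldehydes of lipid peroxidation, was at 31.4 and 34.9 CPM against 11.9 and 13.3.

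Cholesterol synthesis and uptake genes had 4 of 21 measured members called lower and none higher, 18 below 0 and a median of -0.38. SQLE, squalene epoxidase, was at 63.9 and 78.8 CPM in PC9-BrM4 and 28.2 and 35.3 in C2. SCD, stearoyl-CoA desaturase, was at 67.2 and 71.8 against 30.6 and 31.1, and FDPS and PMVK, phosphomevalonate kinase, had -1.52 and -1.01. After the median effect of neighbouring genes was subtracted, FDPS (-0.71) and PMVK (-0.21) were no longer called, while SQLE and SCD were. The median of the list was then -0.42. Glycolysis enzymes, hypoxia-responsive genes, integrated stress response genes, proteasome subunits, G1 and S phase genes had no called member. Of 41 S phase genes 33 were below 0, with a median of -0.22.

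Of 83 measured cytosolic ribosomal protein genes, RPS27, RPL17 and RPS18 were called lower, 76 were below 0 and the median was -0.27. None of the 3 was called after the median of neighbouring genes was subtracted (RPS27 -0.38, RPL17 -0.62, RPS18 -0.51). With uncorrected counts this median was -0.07. Mitochondrially encoded transcripts summed to 176598 and 171978 CPM in sub-populations 7 and 6 and to 199530 and 194751 in 0 and 4. Of the 13 transcripts 10 were above 0, with a median of 0.20, and MT-ND1 was called lower with an effect of -1.04. HSPB1, the small heat shock protein HSP27, was called higher at 143 and 121 CPM against 545 and 524, while HSPD1, the mitochondrial chaperonin, had -0.73. In the metal group LCN2 and MT1A were higher and MT1X was lower. BID, a proapoptotic BH3 protein, was higher with 1.36, and of transcription factors FOXD1 (1.59) was higher, and SOX4 (-1.60) and FOXA1 (-1.0) were lower.

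The MetRes signature, which the study chose on these same samples for cells with features of metastasis and resistance, had 74 of 248 measured members called higher and none lower. Its median was 0.62, and 229 members were above 0. Because of how it was chosen, this is a description of the list and not independent evidence of its direction.

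Markers of other cell types were looked at beside these values. Of the secretory airway markers 9 of 15 were in the table and 5 were measured. PI3, LCN2, WFDC2 and SLPI were called higher, and the summed level was 343 to 350 CPM in PC9-BrM4 and 1090 to 1147 in C2. Of these, PI3 was below 10 CPM in PC9-BrM4 and counted as measured through its C2 level. WFDC2, a secreted whey acidic protein, was at 63.2 and 68.6 CPM against 186 and 188, and SLPI, the leukocyte protease inhibitor, at 120 and 119 against 320 and 338 (effect 1.42, and 0.67 with uncorrected counts). Alveolar type 2 markers summed to no more than 5.18 CPM in any of the 4 sub-populations, fibroblast markers to 2.18, endothelial markers to 5.97 and erythroid markers to 0.0634. Leukocyte markers summed to 23.8 to 25.7 CPM in PC9-BrM4 and 58.4 to 69.8 in C2. This came almost wholly from CD68, a lysosomal protein, while PTPRC, the common leukocyte antigen, did not exceed 0.169 CPM. Markers of glia and neurons summed to 79.7 to 87.7 against 66.5 to 68.3 CPM, with SLC1A3, a glutamate transporter, called higher (1.09) and the myelin gene MBP at -0.63, and the astrocyte filament gene GFAP did not exceed 0.0211 CPM.

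Levels in the sub-populations placed in all lines were set side by side, with sub-populations 2 and 3 standing for PC9 and 1 and 5 for R2. No changes were counted between further lines, because such comparisons share sub-populations. MGP was at 5.67 and 2.66 CPM in PC9, 44.6 and 51.6 in PC9-BrM4, 353 and 368 in C2 and 593 and 595 in R2. It was thus higher in PC9-BrM4 than in PC9, and higher again in both C2 and R2, which were selected in parallel. Among these 8 sub-populations, ALDH3A1 and CYP1B1 had their highest values in PC9. ALDH3A1 was at 186 and 203 CPM in PC9, 31.4 and 34.9 in PC9-BrM4 and 11.9 and 13.3 in C2. CYP1B1 was at 151 and 138 in PC9, and at 53.8 and 59.5 in PC9-BrM4.

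FN1 and LCP1 peaked in PC9-BrM4. FN1 was at 36.2 and 37.2 CPM in PC9, below its 215 and 208 in PC9-BrM4, and LCP1 at 45.2 and 39.7, below 77.1 and 72.8. In R2 they were at 4.62 and 9.77 and at 1.38 and 1.83 CPM. BST2, LCN2 and S100A9 were lowest in PC9-BrM4. BST2 was at 27.0 and 26.6 CPM in PC9, 4.49 and 3.65 in PC9-BrM4 and 164 and 149 in R2. LCN2 was at 156 and 155 CPM in PC9 and S100A9 at 902 and 1013, in both cases above PC9-BrM4. S100A4 was at 10.4 and 8.38 CPM in PC9, near its PC9-BrM4 level, and IL11 at 4.01 and 4.95.

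**Figure D4:**
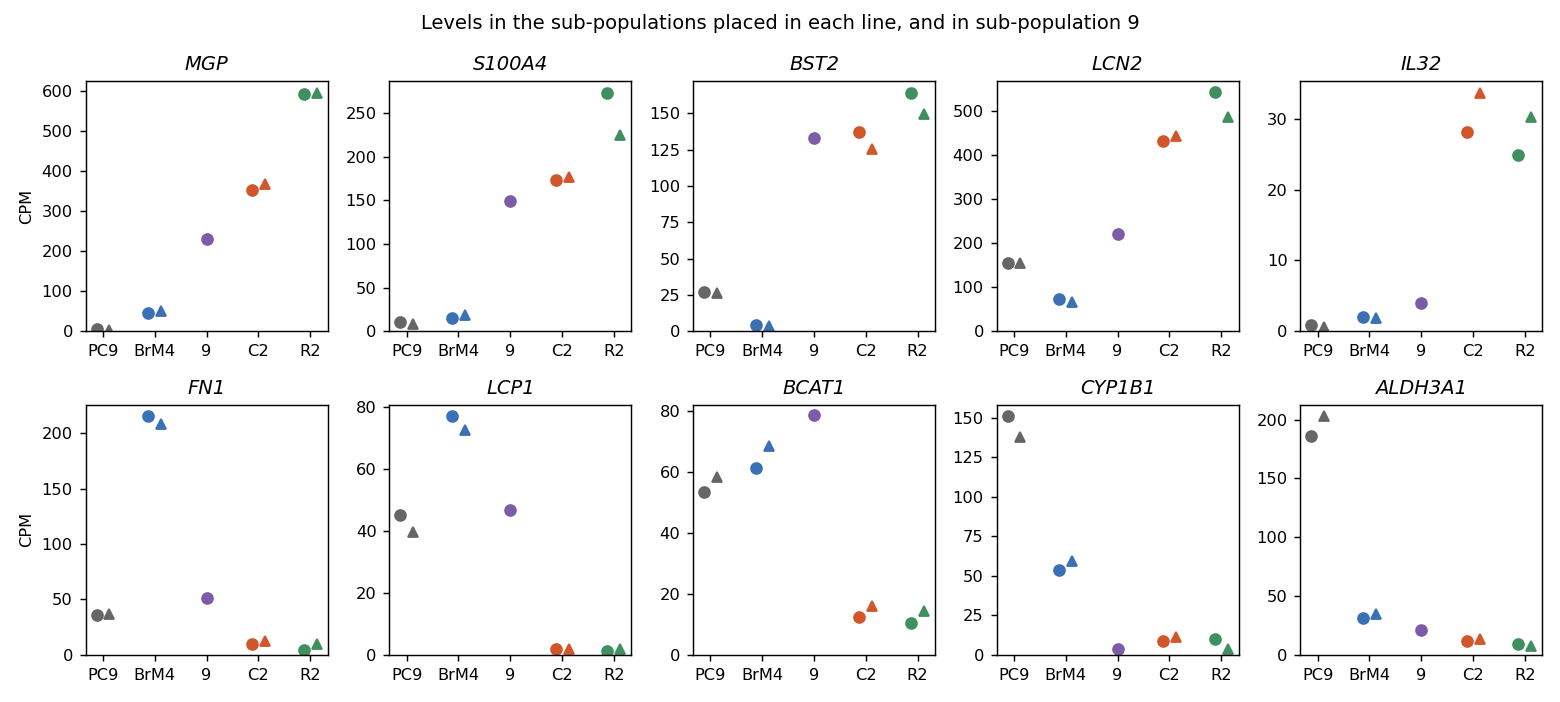
CPM of 10 genes in the sub-populations placed in PC9 (2, 3), PC9-BrM4 (BrM4; 7, 6), C2 (0, 4) and R2 (1, 5), and in sub-population 9; circles and triangles are the first and second sub-population of each. MGP is lowest in PC9 and higher in C2 and R2 than in PC9-BrM4, FN1 and LCP1 peak in PC9-BrM4, and sub-population 9 is near C2 for BST2 and near PC9-BrM4 for BCAT1.

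Sub-population 9, of 821 cells, was compared with both groups, since it is placed mostly in PC9-BrM4 by the plot of the study but was not used for the effects. Genes are not replicates of one another, but as a description the rank correlation (Spearman) across the measured genes of sub-population 9 was 0.972 and 0.975 with 0 and 4, and 0.953 and 0.949 with 6 and 7. BST2 was at 133 CPM in sub-population 9 and S100A4 at 150, next to the C2 values. CDC42EP5 was at 64.5 CPM and AXL at 20.3, and CYP1B1, at 3.79, lay below the C2 values. Other genes were near the PC9-BrM4 values. LCP1 was at 47.0 CPM in sub-population 9, BCAT1 at 78.7, BDNF at 20.6 and EPB41L2, a protein of the membrane skeleton, at 73.5, against 54.9 and 60.1 in 7 and 6 and 21.7 and 23.5 in 0 and 4. IL32 was at 4.04 CPM and HLA-B at 37.3, nearer to PC9-BrM4. S100A9 was at 153 CPM, below all 4 sub-populations compared.

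On a scale on which the PC9-BrM4 mean is 0 and the C2 mean is 1, sub-population 9 had a median position of 0.67 over the 126 genes called higher and of 0.73 over the 60 called lower. The scale shares its ends with the comparison itself and was given no test. When sub-population 9 was counted with 6 and 7 as PC9-BrM4, 58 genes were called higher and 10 lower. Sub-population 11, also mostly PC9-BrM4 by the plot, had its own pattern, with BST2 at 22.1, S100A4 at 5.61, FN1 at 195 and LCP1 at 9.89 CPM.

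Genes called lower were not spread evenly over the genome. In windows of 20 Mb on GRCh38 with at least 15 measured genes, the quartiles of the 145 window medians were -0.11 and -0.01. The lowest window was 140 to 160 Mb of chromosome 1, with a median of -0.80 over 93 genes, of which 88 were below 0. It held 20 of the 60 genes called lower and 2 of those called higher. Its median was -0.83 in sub-population 0 against 7, -0.77 in 4 against 6 and -0.91 in the table of uncorrected counts. FDPS, ANP32E, SSR2, S100A14, RPS27, TAGLN2 and PMVK lay there. So did both exceptions, S100A4 (chr1:153543613-153550136) and S100A9 (chr1:153357854-153361023). Beside them in the S100 gene cluster, S100A6 had an effect of 0.21 and S100A13 of 0.06, whereas S100A14 had -1.19.

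**Figure D5:**
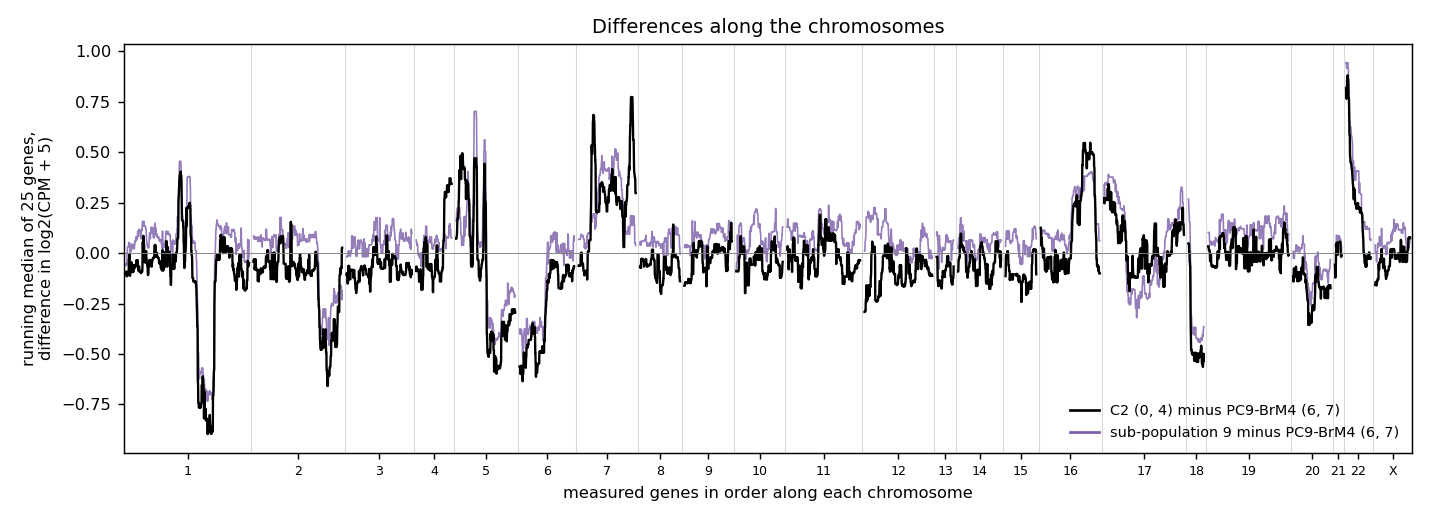
Running median over 25 neighbouring measured genes of the difference in log2(CPM + 5), for C2 against PC9-BrM4 (black) and sub-population 9 against PC9-BrM4 (purple), with genes in order along chromosomes 1 to 22 and X. Most of the black line lies near -0.05, with long stretches below it on chromosomes 1, 2, 5, 6 and 18 and above it on 5, 7, 16 and 22.

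Further windows with medians of -0.4 or less covered 20 to 80 Mb of chromosome 18 (-0.50 to -0.57), 0 to 60 Mb of chromosome 6 (-0.43 to -0.56), 120 to 160 Mb of chromosome 5 (-0.44 and -0.50) and 180 to 220 Mb of chromosome 2 (-0.47 and -0.49). On chromosome 18, of 111 measured genes 18 were above 0. The 11 windows with such medians held 7.19% of the genes and 36 of the 59 genes called lower that could be placed in a window (61.0%). At the upper end stood 60 to 80 Mb of chromosome 16, with a median of 0.50, 69 of 72 genes above 0 and 6 called higher. It was followed by 20 to 40 Mb of chromosome 5 (0.49) and 40 to 60 Mb of chromosome 7 (0.46). On chromosome 22, 122 of 163 genes were above 0 and 13 were called higher, among them BID, MIF and LGALS1. The 9 windows with medians of 0.3 or more held 5.28% of the genes and 28 of the 124 placed genes called higher (22.6%). The windows were ranked by the same effects as the calls, so that these shares are descriptions.

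The same windows were read in sub-population 9, R2 and PC9, each against the same PC9-BrM4 sub-populations. The chromosome 1 window had a median of -0.67 in sub-population 9 against PC9-BrM4 and the window at 60 to 80 Mb of chromosome 16 had 0.38, both towards C2. For 20 to 40 Mb of chromosome 5 the median in sub-population 9 was 0.05 where C2 had 0.49, and for 40 to 60 Mb of chromosome 7 it was 0.16 where C2 had 0.46. In the order chromosomes 1, 16, 5 and 7, these 4 medians were -0.73, 0.41, 0.05 and 0.41 in R2 and -0.18, 0.10, -0.02 and 0.04 in PC9.

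Subtracting the median of its window from each effect left 104 genes called higher, of which 90 were among the 126, and 23 lower, of which 22 were among the 60. BST2, S100A4, MGP, FN1, LCP1 and CYP1B1 were called with and without this step. Of the genes named above, FDPS (-0.71 after it), ANP32E, SSR2, TAGLN2, S100A14, PMVK, NUDT3, ACOT13, STC2, FOXA1, ELP2, RPS27, RPL17 and RPS18 on the lower side and LGALS1, CD68, SLC1A3, MOK and POLE4 on the higher side were not called after it, and S100A6 and TXNIP then were among those called. What the runs of neighbouring genes come from was not tested.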

How the data were processed

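Single-cell transcriptomes (10x Genomics 3′) of PC9, PC9-BrM4, C2 and R2 were aligned to hg38 by the authors with Cell Ranger and filtered, normalised with sctransform (mitochondrial percentage as covariate) and clustered over all lines in Seurat 3. The tables deposited by the authors hold the mean corrected UMI count per cell for each sub-population and, for uncorrected counts, the mean of e to the power of the count minus 1, in which few high cells weigh heavily and 140 overflowed values were left out. Cells per sub-population were recovered from the means as the number that made the sums whole within 0.001. Doublets were not assessed here.

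Each column was rescaled to 1000000, and effects were computed on log2(CPM + 5) with python 3.11.15, pandas 2.3.3 and scipy 1.17.1. The calculation was tested on simulated data. Gene positions came from GENCODE release 44, and promoters from RefSeq (GRCh38.p14). Named genes were the 15 largest and 15 most negative effects with the same direction in both tables (without ribosomal, mitochondrial and clone-named genes), genes the study names, up to 4 called members of a list (the 2 largest by size where none was called), 5 genes on either side for cell cycle state and 3 on either side of each threshold. Uncalled members and further genes named beside these were chosen after their values were seen. The sub-populations, gene lists and rules were chosen with earlier results of these data known. Alternatives varied the table, pseudocount, filter, size of call, scaling and sub-populations used. Some results are not reported here.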

Additional observations from a re-analysis of the deposited data

How the results depend on the processing

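Counts of called genes depended on the settings, while all genes called here kept their direction wherever an alternative gave them a value, except B2M, whose effect was -0.10 in the table of uncorrected counts. Against 126 genes called higher, there were 54 with a pseudocount of 20, 62 with a minimum of 50 CPM, 585 with a call at 0.5 and 58 with sub-population 9 added to PC9-BrM4. Against 60 called lower, there were 122 in the table of uncorrected counts, 97 and 16 with pseudocounts of 1 and 20, 22 with a minimum of 50 CPM and 543 with a call at 0.5. Leaving out sub-population 4, 6 or 7 gave 119, 38 or 96 lower genes. Subtracting window medians gave 23, and adding sub-population 9 gave 10. These last 2 settings were chosen after seeing the data. Under the other alternatives the counts stayed between 92 and 177 higher and between 43 and 88 lower. The cause of these changes was not tested. No paired analysis was possible because each line had 1 library and the values are means over sub-populations. With 1 library per line, variation between cultures could not be estimated, and the depth limits only genes of few UMIs.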
